A study of Mus musculus with 18 samples.

Results

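The genes described here encode the protein subunits of the cytosolic ribosome in mouse leg muscle. They were chosen by name: every Affymetrix probe set annotated with a single gene symbol that begins with Rpl or Rps and a digit was taken, S6 kinases were left out, and where a gene had several such probe sets the brightest on average stood for it. This gave 46 genes, 24 of the large (60S) and 22 of the small (40S) subunit, out of 12393 genes read in the same way. Of the 46, 2 are annotated as transcribed pseudogenes, Rps4l and Rps15a-ps6, and Rps15a-ps6 had the lowest mean signal, 2.68 on the log2 scale. The other end of the range was 13.26, and the median over the 46 genes was 12.04, so that most of these transcripts lay near the top of the array. Probe signals of different genes were not set against each other.

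Adult male C57BL/N6 mice had been assigned to 3 conditions, and soleus and extensor digitorum longus (EDL) muscles were profiled on 3 arrays for each muscle and condition, 18 in all. Bion Flown (BF) mice spent 30 days in microgravity aboard the Bion M1 biosatellite and were moved from the landing site to the institute before dissection. Flight Control (FC) mice lived in a standard animal facility, on standard chow. Bion Ground (BG) mice lived on Earth in the habitat used for the flown animals, on the same paste food as the BF mice. No genetic change is given for any group. The comparison of BF with BG therefore holds the habitat and diet alike and that of FC with BG differs in both, while BF and FC differ in gravity, habitat and diet together. BF mice also differed from both controls in launch, landing and the move before dissection, which cannot be told apart from microgravity here. The labels do not say whether arrays with the same number come from the same mouse, so p-values measure the spread between these arrays.

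The ribosome is built in the nucleolus and cytoplasm from ribosomal RNA and a large set of ribosomal proteins. Their messages carry a stretch of pyrimidines at the very start, the terminal oligopyrimidine (TOP) sequence, through which mTOR signalling raises or lowers their translation as a group. In skeletal muscle, ribosome number sets much of the capacity for protein synthesis and changes with growth, unloading and wasting. A few ribosomal proteins have paralogs whose expression differs between tissues, among them the muscle-enriched Rpl3l. Others have roles outside the ribosome, such as binding of Mdm2 by Rpl5 and Rpl11.

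The first RefSeq start listed is shown for 8 members on which the results turn, to let TOP-like starts be seen. For Rpl22 and Rps27l that start lies inside the gene, whose record begins at 152324436 and 66944624. Their stretches therefore do not show the outer start of the gene and cannot be compared with those of their paralogs as such. Each line gives 30 bases before and 20 bases from the RefSeq start on, 5′ to 3′ on the transcribed strand, on GRCm38.p6. Capitals mark the longest unbroken run of at least 6 C or T letters that touches the 10 bases before or the 10 bases from the start on, read on that strand only.
Rpl22l1 (chr3:28805478-28805527, plus strand): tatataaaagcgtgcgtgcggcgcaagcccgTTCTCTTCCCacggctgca
Rpl22 (chr4:152325696-152325745, plus strand): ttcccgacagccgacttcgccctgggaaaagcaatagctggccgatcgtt
Rps27 (chr3:90213629-90213678, minus strand): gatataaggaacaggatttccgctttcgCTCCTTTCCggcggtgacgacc
Rps27l (chr9:66946056-66946105, plus strand): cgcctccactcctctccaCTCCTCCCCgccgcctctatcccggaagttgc
Rpl12 (chr2:32961682-32961731, plus strand): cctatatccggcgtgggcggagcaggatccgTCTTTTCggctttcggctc
Rps25 (chr9:44407684-44407733, plus strand): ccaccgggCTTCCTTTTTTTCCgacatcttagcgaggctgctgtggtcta
Rps19 (chr7:24884562-24884611, plus strand): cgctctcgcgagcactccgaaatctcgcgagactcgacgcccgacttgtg
Rpl3l (chr17:24727796-24727845, plus strand): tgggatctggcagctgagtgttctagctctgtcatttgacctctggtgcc

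Of the 46 members, 39 had a promoter in the RefSeq table, and 26 of these 39 (66.7%) held such a run, against 32.7% of 27025 genes. The run began at the second base from the start in Rpl22l1 and Rpl12 and crossed the start in Rps27, whereas Rpl22, Rps19 and Rpl3l had none at the first RefSeq start listed. In Rps25 and Rps27l the run lay before the start shown. The word CCGGAAG, searched on both strands of the 300 bases around the start, stood in 19 of the 39 members (48.7%) and in 9.93% of all genes. The word TATAAA on either strand stood in 5 members (12.8%) and in 15.7% of all genes. A match is a match of letters only. Among the 17 members with a promoter that rose in BF soleus against BG or FC (the results follow), 13 held the C or T run (76.5%), and among the other 22, 13 did (59.1%). The shares for CCGGAAG were 8 of 17 (47.1%) and 11 of 22 (50%).

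The deposited values are quantile-normalized, which by itself brings arrays to a similar level. The median signal per array lay between 6.17 and 6.25, and arrays of the same muscle and condition correlated at 0.978 to 0.995. The 95th percentile lay between 10.58 and 10.77 over all arrays. It was 10.583 to 10.586 on BF soleus, 10.577 to 10.696 on FC soleus and 10.733 to 10.767 on BG soleus arrays. The part of this difference at the bright end in the member values was not tested. The arrays carried the markers of their labelled muscle: all 9 measured slow fibre markers were higher in soleus than in EDL of BG mice (limma, adjusted p under 0.05 for each). A difference in RNA quality ran through the data. The Gapdh control probe sets at the 3′ and 5′ ends of the message, whose difference grows when RNA is fragmented or copied short, differed by 0.58 to 0.86 log2 units on the FC soleus arrays and by 0.01 to 0.35 on the other arrays. The Actb control probe sets gave 0.48 to 0.58 on FC soleus arrays and at most 0.25 elsewhere. In EDL the Actb difference was 0.17 to 0.25 on the FC arrays, above all BF arrays (at most 0.048) and all BG arrays (at most 0.145). Each comparison with FC below carries these differences. BF and BG soleus arrays overlapped in both measures, with Gapdh means of 0.19 and 0.065 and Actb means of 0.10 and -0.02. The part of all these end differences in the results was not tested.

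Not every ribosomal protein could be read equally well. Of the 46 members, 34 had a mean log2 signal of at least 10 and are called bright here, 17 in each subunit. The other 12 were dim, and for 8 of those 12 a bright probe set did exist but named other genes too, mostly processed pseudogenes, and so lay outside the definition. In total 101 probe sets named a ribosomal protein together with another gene. Genes such as Rpl3, Rpl5, Rpl10, Rpl26 and Rps16 were read by shared probe sets alone and are not among the 46. Of the 46, 11 were read by probe sets of the x_at kind, which the maker marks as likely to bind related sequences as well.

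In soleus the ribosomal protein genes as a group were highest in BF mice. For each array, the log2 signal of each gene was taken relative to that gene's mean over all 18 arrays, and the median over the 46 genes was formed. It was 0.07, 0.22 and 0.11 on the BF soleus arrays, -0.11, -0.20 and -0.08 on the FC soleus arrays, and -0.03, 0.01 and -0.03 on the BG soleus arrays. The 3 conditions did not overlap over the 46 genes. Over the 34 bright members alone, the same median was 0.035, 0.217 and 0.101 on BF and -0.010, 0.044 and -0.021 on BG soleus arrays. There BF soleus replicate 1 lay below BG soleus replicate 2, while all FC soleus arrays, at -0.121, -0.206 and -0.077, stayed lowest. In EDL it was -0.06, 0.16 and 0.10 in BF, -0.01, -0.06 and -0.05 in FC, and 0.00, -0.07 and -0.03 in BG, with 1 BF array among the controls. In whole muscle, a smaller share of a cell type and less RNA per cell cannot be told apart. Cell type marker signals of BF soleus differed too. The summed signal of 9 slow fibre markers was 16.0 to 16.5 on the log2 scale in BF, 16.9 in each FC array and 16.9 in each BG array. Of these 9 markers 1 fell against either control, and 4 of 9 fast fibre markers rose against either control. Against FC and BG alike, 4 of 6 adipocyte markers rose (Lep, Adipoq, Cidec and Retn, with list medians of 1.32 and 2.11) and 1, Lpl, fell, while their summed signal, in which the abundant Lpl weighs most, was 13.95 to 14.53 in BF, 14.22 to 14.38 in FC and 14.40 to 14.55 in BG soleus. Of 7 endothelial markers 5 fell against FC and 4 against BG, and of 7 fibroblast markers 3 and 4 did. Their part in the ribosomal protein values was not tested.

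**Figure D1:**
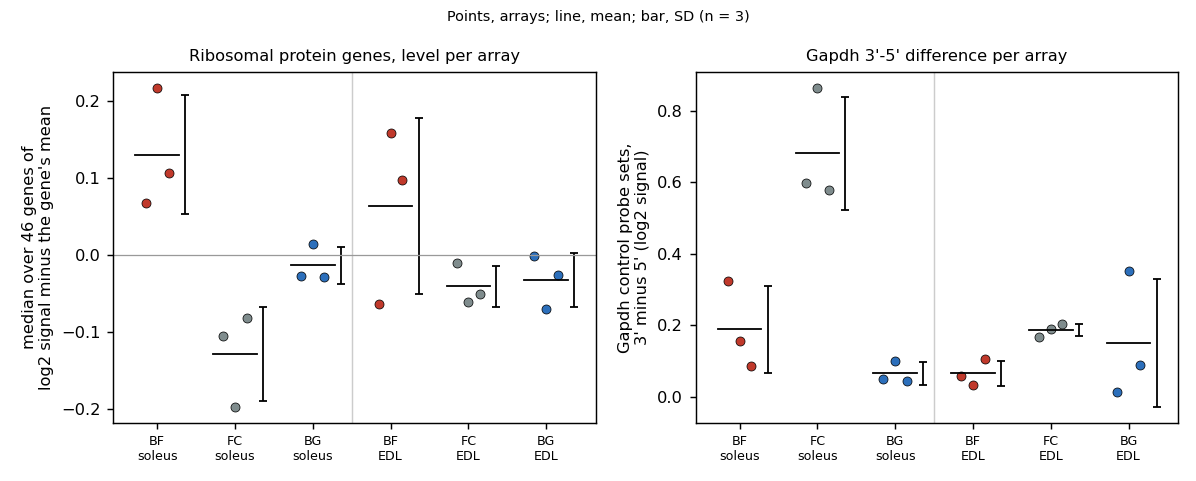
Left, median over the 46 ribosomal protein genes of log2 signal minus the gene's own mean, for each array (points), with the group mean (line) and SD (bar, n = 3). BF soleus arrays lie between 0.07 and 0.22, above all FC and BG soleus arrays. Right, log2 difference between the 3′ and 5′ Gapdh control probe sets on the same arrays, where FC soleus arrays stand at 0.58 to 0.86.

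The comparison of BF with BG soleus asks what differed between flown mice and mice kept on Earth in the same habitat. Here 9 of 46 members rose (19.6%) and none fell at an adjusted p under 0.05 (limma over 22626 probe sets), while over all genes 11.1% rose and 12.3% fell. At an unadjusted p under 0.05 (limma), 13 members were higher and 1 was lower, and of all 12393 genes 2440 were higher and 2283 lower. The median log2 fold change was 0.14 over the members and 0.03 over all genes, and 37 members were higher against 9 lower. The member median was 0.07 without BF soleus replicate 2 and 0.09 with arrays centred on their medians. The 3 BF arrays lay above the 3 BG arrays for 19 members and below them for 2, where the shares of all genes were 21.1% and 19.0%. Among the 34 bright members 4 rose (11.8%), close to the share over all genes, with a median of 0.10. Among the dim members 5 of 12 rose, 1 of them the pseudogene Rps4l.

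Rpl12, a protein of the 60S stalk base where elongation factors bind, had the highest log2 fold change of the members. Its log2 signal was 7.19, 7.78 and 6.78 in BF soleus, and 6.14, 5.93 and 5.83 in BG soleus. All BF values lay above all BG values, and the log2 fold change was 1.29 ± 0.19 (SE), or 2.44-fold (limma, adjusted p = 0.000292). Rps25, a 40S head protein known for its contact with viral internal ribosome entry sites, gave 7.95, 8.66 and 7.66 in BF and 7.08, 7.26 and 7.19 in BG soleus, again without overlap. Its log2 fold change was 0.91 ± 0.18 (adjusted p = 0.00241, limma). Rps27, a zinc-binding 40S protein, stood at 6.37, 6.41 and 6.50 in BF and at 5.94, 5.99 and 5.92 in BG soleus, with a log2 fold change of 0.47 ± 0.10 (adjusted p = 0.00246, limma). The arrays of each group lay close together for Rps27, and no BF value reached a BG value.

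Rps4l, which RefSeq annotates as a transcribed pseudogene and whose name marks it as like the X-linked Rps4x, had 6.28, 7.13 and 6.01 in BF soleus and 6.15, 5.55 and 5.54 in BG soleus, and here the groups overlapped. The log2 fold change was 0.73 ± 0.23 (adjusted p = 0.0323, limma). BF soleus replicate 2 was the highest BF array for Rpl12, Rps25 and Rps4l alike. Without it the log2 fold changes against BG were 1.02 for Rpl12 (adjusted p = 0.000664), 0.63 for Rps25 (adjusted p = 0.00538) and 0.40 for Rps4l, which was then no longer called (adjusted p = 0.15, limma). Rps4l was not called either without BG soleus replicate 2 (0.63, adjusted p = 0.113) or BG soleus replicate 3 (0.62, adjusted p = 0.121, limma). BF soleus replicate 2 also had the highest summed signal of 10 macrophage markers, 12.06 on the log2 scale against 11.18 and 11.03 in the other BF soleus arrays. The macrophage sum was 10.93 to 11.26 in FC soleus and 10.44 to 10.71 in BG soleus. Of the 10 macrophage markers 2 rose in BF against BG soleus, Cd68 and Fcgr1 (list median 0.33). Against FC 2 rose and 1 fell (list median -0.14). Other sums of BF soleus replicate 2 stood apart from BF soleus replicates 1 and 3 too. They were 16.50 against 16.03 and 16.11 for slow fibre and 16.65 against 17.02 and 17.05 for fast fibre markers. For adipocyte markers they were 14.53 against 14.05 and 13.95, and for satellite cell and regenerating fibre markers 10.31 against 9.81 and 8.37. The part of these sums in the ribosomal protein values was not tested. Without BF soleus replicate 2 the count of members called was 5, and without BG soleus replicate 3 it was 3.

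The bright member with the highest log2 fold change against BG was Rpl22l1, the paralog of Rpl22 that is held down by the Rpl22 protein in mouse cells. Rpl22l1 had a log2 signal of 11.39, 11.72 and 11.95 in BF soleus and of 10.88, 10.98 and 11.22 in BG soleus, without overlap. Its log2 fold change was 0.66 ± 0.22 (adjusted p = 0.0435, limma), or 1.58-fold, and the call was lost in 8 of 12 alternatives. Rpl22 itself was at 10.88, 11.18 and 11.23 in BF and at 10.85, 11.03 and 10.96 in BG soleus, and overlapped. The other 4 members that rose were Rpl14 (0.43 ± 0.15, adjusted p = 0.0497, a call lost in 10 of 11 alternatives), Rpl7a (0.34 ± 0.10, adjusted p = 0.0246), Rps26 (0.33 ± 0.09, adjusted p = 0.0153) and Rps14 (0.30 ± 0.09, adjusted p = 0.0279, all limma). Rpl7a lost its call without BF soleus replicate 1 or 2 or BG soleus replicate 2 or 3 (0.31 to 0.35, adjusted p up to 0.0898), Rps26 without BF soleus replicate 1 or BG soleus replicate 3 (0.31 and 0.30), and Rps14 without BF soleus replicate 3 or BG soleus replicate 1 or 3 (0.22 to 0.30, adjusted p up to 0.112, limma).

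Of the 5 dim members called against BG, 4 were also read by bright probe sets shared with other gene names, and for these 4 the shared probe sets gave smaller differences. The brightest shared probe set of Rpl12 changed by 0.29 ± 0.15 against BG (adjusted p = 0.16, limma) and the other by 0.21 ± 0.14 (adjusted p = 0.297). The shared probe set of Rps25 changed by 0.21 ± 0.09 (adjusted p = 0.114), and that of Rps27 by 0.18 ± 0.13 (adjusted p = 0.33, limma). The 5 shared probe sets of Rpl14 ranged from -0.21 to 0.11. The shared probe sets of the other 4 dim genes that have any (Rpl27a, Rpl37, Rpl39 and Rps6, none of them called) changed by -0.43 to 0.24. None of these probe sets passed the threshold against BG, so that the calls of Rpl12, Rps25, Rps27 and Rpl14 rest on the dim probe sets. Which of the transcripts each probe set reads was not tested.

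**Figure D2:**
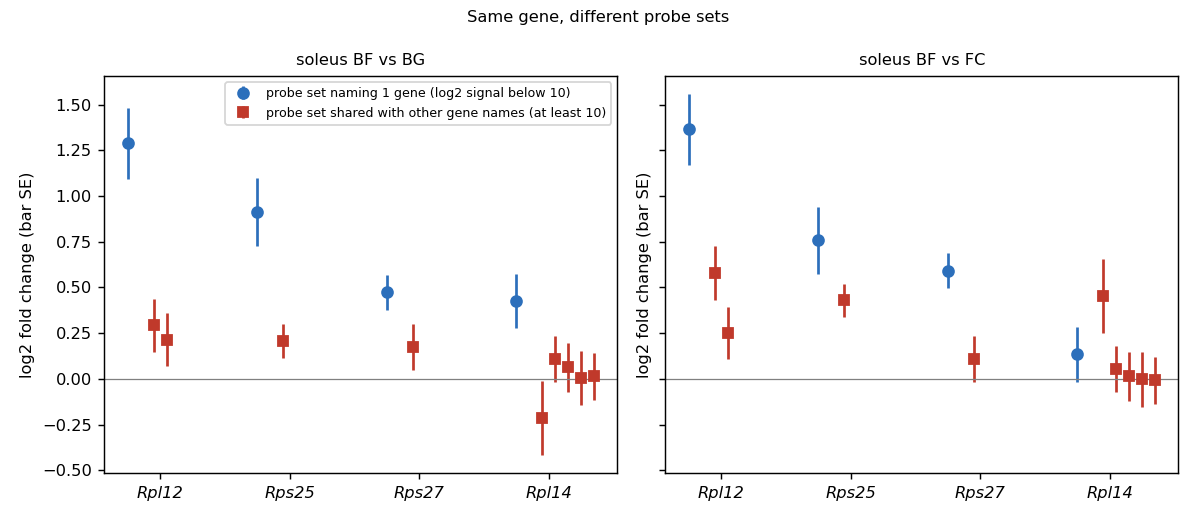
Log2 fold change with SE in soleus, BF vs BG (left) and BF vs FC (right), for 4 genes read by a dim probe set that names 1 gene (circles) and by bright probe sets shared with other gene names (squares). Against BG, Rpl12 stands at 1.29 by the first and at 0.29 and 0.21 by the second kind.

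The comparison of BF with FC soleus gave the most calls of the soleus comparisons. Here 15 of 46 members rose (32.6%) and none fell (limma), while 9.02% of all genes rose and 16.0% fell. The median log2 fold change was 0.27 over the members and 0.00 over all genes, and 40 members were higher. For 25 members all BF arrays lay above all FC arrays, and for none below, where the shares of all genes were 15.7% and 22.6%. Among the bright members 11 of 34 rose, with a median of 0.26. The Gapdh and Actb end differences moved with this comparison. Without BF soleus replicate 2 the count was 7, and without FC soleus replicate 2 it was 8.

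Rpl22l1 differed most among the bright members. It was at 11.39, 11.72 and 11.95 in BF soleus and at 10.45, 10.40 and 10.85 in FC soleus, a log2 fold change of 1.12 ± 0.22 (2.17-fold, adjusted p = 0.00174, limma). Rps19, a 40S protein needed for maturation of the small subunit and mutated in Diamond-Blackfan anaemia in humans, had 11.62, 11.97 and 11.66 in BF soleus and 11.18, 11.17 and 11.26 in FC soleus. No array of one group reached the other, and the log2 fold change was 0.54 ± 0.12 (adjusted p = 0.0027, limma). Rps3a1, a 40S protein near the exit of the message channel, had 12.77, 12.95 and 12.90 in BF soleus against 12.47, 12.40 and 12.57 in FC soleus, a log2 fold change of 0.39 ± 0.10 (adjusted p = 0.00743, limma). These 3 calls were kept in each of the 12 alternatives run for single genes, which did not include the 2-fold threshold. Rps19 (1.458-fold) and Rps3a1 (1.315-fold) changed less than 2-fold. In BF against BG soleus neither of them was called. Rps19 changed there by 0.25 ± 0.12 (adjusted p = 0.121) and Rps3a1 by 0.04 ± 0.10 (adjusted p = 0.807, limma).

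Rpl12 (1.36 ± 0.19, adjusted p = 0.000128), Rps4l (0.85 ± 0.23, adjusted p = 0.0127), Rps25 (0.76 ± 0.18, adjusted p = 0.00647) and Rps27 (0.59 ± 0.10, adjusted p = 0.000353) rose against FC too by limma, read by their dim probe sets. Rps4l was at 6.28, 7.13 and 6.01 in BF against 5.75, 5.68 and 5.45 in FC soleus, and was not called without BF soleus replicate 2 (0.52, adjusted p = 0.0625) or FC soleus replicate 3 (0.76, adjusted p = 0.0559, limma). The brightest shared probe set of Rpl12 (0.58 ± 0.15, adjusted p = 0.00857) and that of Rps25 (0.43 ± 0.09, adjusted p = 0.0029, limma) rose against FC, whereas the shared set of Rps27 did not pass (0.11 ± 0.13, adjusted p = 0.573). Of the 74 bright shared probe sets 16 rose and none fell against FC (21.6% and 0%), and 1 rose and 1 fell against BG (1.35% each, against 11.1% and 12.3% of all genes).

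Further called members were Rpl11 (0.36 ± 0.12, adjusted p = 0.0399), Rpl19 (0.34 ± 0.10, adjusted p = 0.0171) and Rps4x (0.28 ± 0.09, adjusted p = 0.0382, limma). Against BG soleus they changed by 0.16, 0.03 and 0.19, and none was called. Rpl11, which with Rpl5 and 5S ribosomal RNA binds Mdm2, stood at 11.60, 11.81 and 11.62 in BF and at 11.36, 11.07 and 11.51 in FC soleus. Its log2 fold change was 0.24 without FC soleus replicate 2, where it was not called (adjusted p = 0.201, limma). Of the 6 arrays compared, only leaving out FC soleus replicate 3 kept the call of Rpl11. Rpl19 and Rps4x were both lost without BF soleus replicate 2 (0.30 and 0.25) or FC soleus replicate 2 (0.26 and 0.22), and Rps4x also without BF soleus replicate 1, BF soleus replicate 3 or FC soleus replicate 3 (0.29 each). The 5 remaining members were Rps18, Rpl6, Rpl10a, Rpl35 and Rpl27, with log2 fold changes of 0.28 to 0.47. Against BG soleus these 5 changed by 0.28, 0.12, 0.26, 0.04 and 0.15 in that order, and none was called. Of these, Rps18 and Rpl6 fall outside the rule for named genes and were named after their values were seen. Rps18 kept its call in all 12 alternatives run for it, and the other 4 lost theirs without BF soleus replicate 2 (0.19 to 0.29, adjusted p = 0.0738 to 0.195) and without FC soleus replicate 2 (0.25 to 0.33, adjusted p = 0.0698 to 0.139, limma). The call was also lost without FC soleus replicate 1 for Rpl27 (0.29) and Rpl35 (0.29), without FC soleus replicate 3 for Rpl27 (0.29) and Rpl10a (0.33), and without BF soleus replicate 3 for Rpl35 (0.30).

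**Figure D3:**
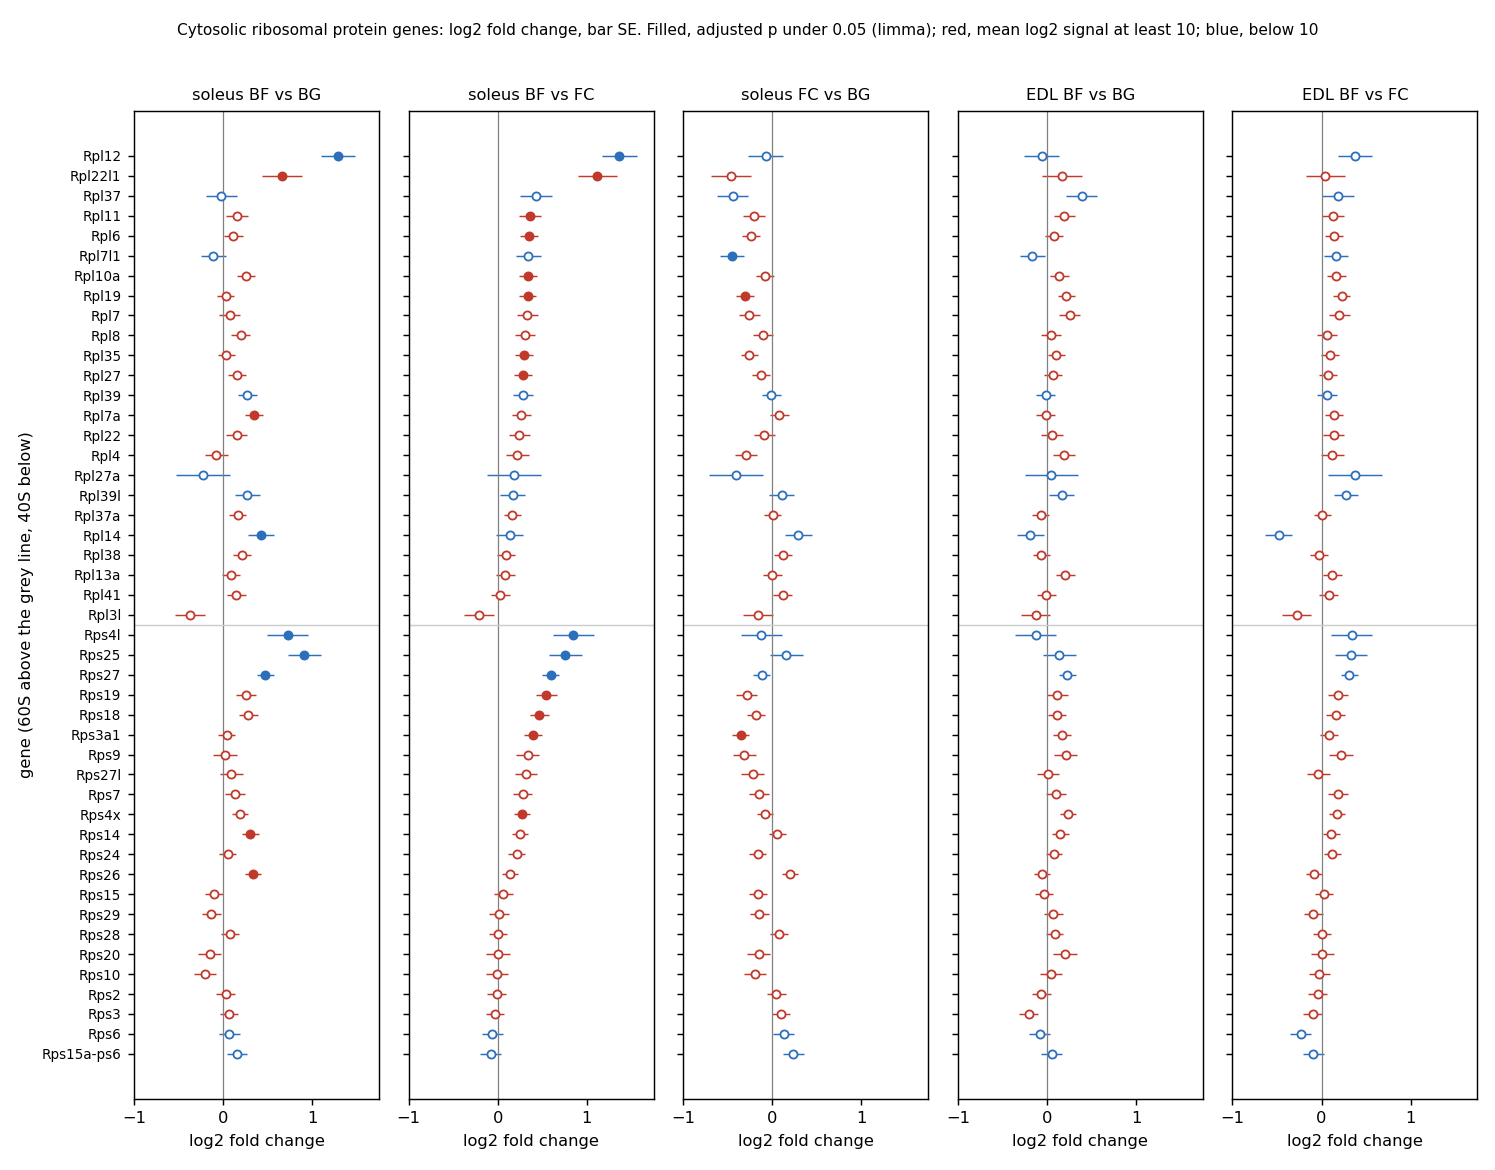
Log2 fold change (point) and SE (bar) of each of the 46 genes in 5 comparisons, 60S genes above and 40S genes below the grey line, sorted by the BF vs FC soleus value. Filled points passed the adjusted p threshold in limma; red genes are bright and blue genes dim. In BF vs FC soleus 40 of 46 points lie above 0, and in both EDL panels no point is filled.

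The FC mice were then set against the BG mice, which asks about housing and diet without flight. In soleus 3 of 46 members fell (6.52%) and none rose (limma), while 4.03% of all genes fell and 5.78% rose. The median was -0.13 over the members and 0.05 over all genes, and 31 members were lower. All FC arrays lay below all BG arrays for 16 members, against 13.7% of all genes, and above them for 3, against 21.9%. The 3 that fell were Rpl7l1, a paralog of Rpl7 (-0.45 ± 0.14, adjusted p = 0.0416), Rps3a1 (-0.36 ± 0.10, adjusted p = 0.0276) and Rpl19 (-0.31 ± 0.10, adjusted p = 0.0473, limma). Rps3a1 was at 12.47, 12.40 and 12.57 in FC soleus and at 12.81, 12.84 and 12.86 in BG soleus. Leaving out 1 array lowered the count to 0 for BG soleus replicate 1, 2 or 3 and FC soleus replicate 2, and to 1 for FC soleus replicate 1, and only without FC soleus replicate 3 did it stay at 3. The FC soleus arrays are those with the larger end differences of Gapdh and Actb.

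In EDL no member was called in any of the 3 comparisons. At an unadjusted p under 0.05 (limma), BF against BG gave 5 of 46 members higher and none lower. Of all 12393 genes, 668 were higher and 833 lower at that threshold. After adjustment, 0.266% of all genes were called higher and 0.113% lower. The member median was 0.07 and the values ran from -0.21 to 0.39. All BF arrays lay above all BG arrays for 5 members and below them for 1, where the shares of all genes were 6.78% and 8.75%. BF against FC gave 2 members higher and 1 lower at an unadjusted p under 0.05, and 813 and 1396 of all genes. The member median was 0.11 with values from -0.48 to 0.38, and 1.02% and 2.52% of all genes were called after adjustment. All BF arrays lay above all FC arrays for 10 members and below them for 2, where the shares of all genes were 9.80% and 14.2%. FC against BG gave no member higher and 2 lower at an unadjusted p under 0.05, and 711 and 660 of all genes. The member median was -0.01, and 0.0242% of all genes were called higher and 0.00807% lower after adjustment. All FC arrays lay above all BG arrays for 4 members and below them for 4, where the shares of all genes were 8.80% and 8.90%. Rps27 had 6.15, 6.27 and 6.42 in BF EDL, 6.08, 5.99 and 5.83 in FC EDL and 6.05, 6.05 and 6.06 in BG EDL. All BF EDL arrays of Rps27 lay above those of both controls, although neither comparison passed adjustment. The larger Actb end difference of the FC EDL arrays moves with the comparisons with FC.

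The BF minus BG difference was then compared between the muscles, as that in soleus less that in EDL. Rpl12 was the 1 member called (1.35 ± 0.27, adjusted p = 0.00947, limma), where 4.21% of all genes were called higher and 5.04% lower. In EDL its log2 signal was 6.29, 6.10 and 6.57 in BF, and 6.57, 6.29 and 6.27 in BG, a log2 fold change of -0.06. In FC EDL it was 5.898, 6.025 and 5.898, below all BF and BG values. Of the other members 5 had an unadjusted p under 0.05 (limma), all in the direction of a larger difference in soleus. Of all 12393 genes, 1856 had such a p in that direction and 1591 in the other. The count of members called after adjustment was 4 without BF EDL replicate 3 and 3 without BF soleus replicate 3. The member median was 0.09 and that over all genes was 0.05. The member median was 0.0074 without BF soleus replicate 2 and 0.01 with arrays centred on their medians.

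Soleus was then set against EDL within each condition. In FC mice 3 members were lower in soleus and none higher (limma), while over all genes 8.40% were lower and 8.0% higher. All soleus arrays lay below all EDL arrays for 14 members and above them for 5, where the shares of all genes were 17.8% and 20.1%. Rpl22l1 was at 10.45, 10.40 and 10.85 in FC soleus against 11.76, 11.67 and 11.74 in FC EDL, a log2 difference of -1.16 ± 0.22 (adjusted p = 0.00188, limma). Rps27l, the p53-responsive paralog of Rps27, was at 11.11, 11.03 and 11.17 in soleus and at 11.88, 11.76 and 11.90 in EDL (-0.74 ± 0.13, adjusted p = 0.000691). Rpl3l, which takes the place of Rpl3 in part of the ribosomes of heart and skeletal muscle, was at 11.14, 11.25 and 11.35 in soleus and at 11.76, 11.91 and 11.85 in EDL (-0.59 ± 0.17, adjusted p = 0.0217, limma). Rpl3l was not called without FC soleus replicate 1 or 2 or FC EDL replicate 2 or 3 (-0.54 to -0.59, adjusted p up to 0.0822, limma). None of the 3 genes overlapped between the muscles of FC mice. The larger end differences of the FC soleus arrays move with these values.

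In BG mice, where the end differences of the 2 muscles overlapped, 1 member was called, Rps27l, while 8.71% of all genes were lower and 8.30% higher. Rps27l had 11.279, 11.362 and 11.333 in soleus and 11.998, 11.631 and 11.766 in EDL (-0.47 ± 0.13, adjusted p = 0.0166, limma). It was not called without BG EDL replicate 1 (-0.37, adjusted p = 0.0726) or without BG soleus replicate 1 (-0.45, adjusted p = 0.0554). Without BG EDL replicate 2 the count was 2. Rpl22l1 in BG was at 10.88, 10.98 and 11.22 in soleus and at 12.19, 11.12 and 11.48 in EDL, and 1 EDL array, at 11.12, fell within the soleus range. Rpl3l was at 11.44, 11.41 and 11.37 in BG soleus and at 11.64, 11.69 and 11.73 in BG EDL, without overlap but not called.

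In BF mice 5 members were higher in soleus and 1 lower, while 5.79% of all genes were higher and 6.63% lower. The 5 were Rpl12 (0.94 ± 0.19, adjusted p = 0.00727), Rps4l (0.86 ± 0.23, adjusted p = 0.0243), Rps25 (0.70 ± 0.18, adjusted p = 0.0218), Rpl14 (0.59 ± 0.15, adjusted p = 0.0194) and Rps6 (0.41 ± 0.12, adjusted p = 0.0345, limma). All 5 were read by dim probe sets. The bright shared probe sets of 4 of these genes did not pass in the same comparison: that of Rps25 differed by 0.03 (adjusted p = 0.866), those of Rpl12 by 0.18 and 0.17, those of Rpl14 by -0.18 to 0.06 and those of Rps6 by 0.12 to 0.26 (limma). Rps27l was at 11.23, 11.27 and 11.75 in BF soleus and at 11.80, 11.78 and 11.85 in BF EDL, without overlap, and did not pass (-0.39 ± 0.13, adjusted p = 0.0536, limma). Rps6, the 40S protein phosphorylated by the S6 kinases, stood at 8.064, 8.477 and 8.003 in BF soleus and at 7.683, 7.875 and 7.764 in BF EDL. Without BF soleus replicate 2 only Rpl12 stayed called of the 6 (0.67, adjusted p = 0.0372, limma). Without BF EDL replicate 1 the count in BF mice was 1 and without BF EDL replicate 2 it was 2.

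Rpl3l had the lowest log2 fold change of the 46 members in BF soleus against BG and against FC. In all 9 members were lower against BG and 6 against FC, none of them called, and Rps20 and Rps29 were the 2 whose BF arrays all lay below the BG arrays. Its log2 signal was 11.13, 10.60 and 11.38 in BF soleus, 11.14, 11.25 and 11.35 in FC soleus, and 11.44, 11.41 and 11.37 in BG soleus. BF soleus replicate 2, the highest array for many members, was the lowest for Rpl3l. The log2 fold change was -0.21 ± 0.17 against FC and -0.37 ± 0.17 against BG, and neither passed (adjusted p = 0.389 and 0.116, limma). In BF mice Rpl3l was lower in soleus than in EDL (-0.52 ± 0.17, adjusted p = 0.0493, limma), but not without BF soleus replicate 2 (-0.30, adjusted p = 0.251), BF soleus replicate 1 (-0.57, adjusted p = 0.0696), BF EDL replicate 1 (-0.50, adjusted p = 0.124) or BF EDL replicate 2 (-0.38, adjusted p = 0.189, limma).

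**Figure D4:**
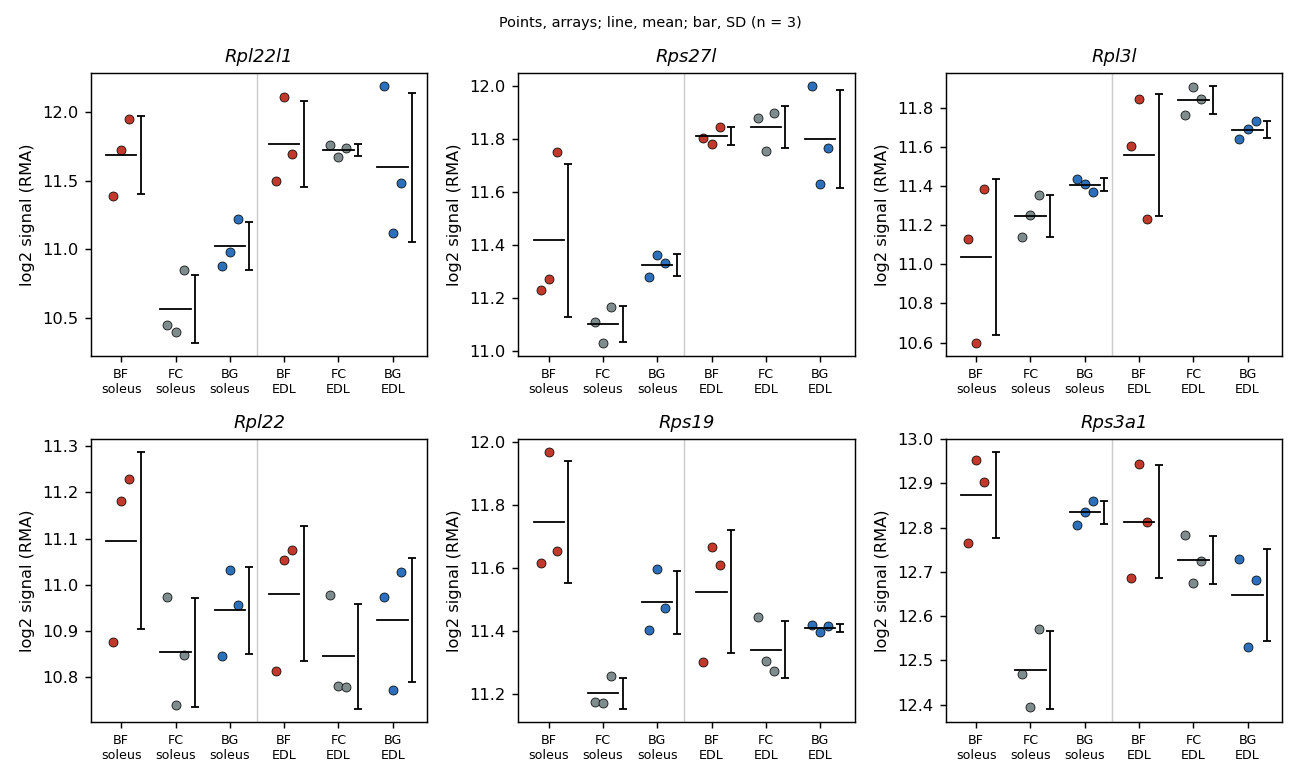
Log2 signal on each array (points) with the group mean (line) and SD (bar, n = 3) for the paralogs Rpl22l1, Rps27l and Rpl3l and for Rpl22, Rps19 and Rps3a1. Rpl22l1 in FC soleus (10.40 to 10.85) lies below all other groups, and the Rps27l points of soleus lie below those of EDL in each condition.

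Of the members with known roles outside the ribosome, Rpl11, Rps19 and Rps25 are given above and 3 others were not called. Rpl13a, which in human cells takes part in interferon-induced translational silencing, changed by 0.09 ± 0.10 in BF against BG soleus and by 0.09 ± 0.10 against FC. Rpl38, needed for Hox message translation in the mouse embryo, changed by 0.21 ± 0.10 against BG and 0.09 ± 0.10 against FC. Rps3, which lines the entry of the message channel and acts in DNA repair, changed by 0.07 ± 0.10 against BG and by -0.03 ± 0.10 against FC. None of these was called. Of the remaining paralogs, Rps27l changed by 0.09 ± 0.13 against BG and 0.32 ± 0.13 against FC, and Rpl39l, best known from testis, by 0.27 ± 0.14 and 0.17 ± 0.14, none of them called. Rpl39l read low at 3.98 to 4.74 on all arrays.

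Members varied together within groups. Over the deviations of the 18 arrays from their group means, the pairwise correlation between bright members had a median of 0.39, and 463 of 561 pairs were above 0. These points share the arrays and their normalization, so the values are descriptive. Rpl22l1 deviated most like Rpl7 (r = 0.92) and Rps3a1 most like Rpl35 (r = 0.93). Rpl12, Rps25 and Rps4l deviated with each other (r = 0.66 to 0.88), while Rpl12 had a median correlation of 0.03 with the bright members. For Rpl3l that median was -0.10.

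Genes that make or use the ribosome were described as whole lists, which were chosen with earlier results of these data known. Their counts stand beside the shares of all genes in soleus, of which 9.02% rose and 16.0% fell in BF against FC, 11.1% rose and 12.3% fell in BF against BG, and 5.78% rose and 4.03% fell in FC against BG. Of 38 measured ribosome assembly and nucleolar factors, 20 rose (52.6%) and 1 fell in BF against FC soleus, 11 rose (28.9%) and 1 fell in BF against BG, and 1 rose and 6 fell (15.8%) in FC against BG, with medians of 0.45, 0.23 and -0.17. Nop58, a core protein of box C/D small nucleolar particles, rose by 2.24 ± 0.33 against FC (adjusted p = 0.000177) and by 1.43 ± 0.33 against BG (adjusted p = 0.00604, limma). Gnl3, the nucleolar GTPase nucleostemin, rose by 1.64 ± 0.18 (adjusted p = 1.51e-05) and by 1.0025 ± 0.18 (adjusted p = 0.000978, limma). Nip7, a 60S assembly factor, rose by 1.37 ± 0.20 against FC (adjusted p = 0.000184, limma). Rrp1, also of the nucleolus, was the 1 gene of the list that fell, by 0.78 against FC and 0.50 against BG. In EDL none of the 38 was called in BF against either control.

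The host genes of small nucleolar RNAs changed further. All 5 that were measured rose in BF soleus against FC and against BG, with medians of 1.38 and 1.14. Snhg5 rose by 1.98 ± 0.14 against FC (adjusted p = 3.04e-07) and by 1.78 ± 0.14 against BG (adjusted p = 7.6e-07, limma), and Gas5 by 1.12 ± 0.13 and 0.91 ± 0.13 (adjusted p = 3.03e-05 and 0.000219). In EDL 4 of 5 rose against FC and 2 of 5 against BG, Snhg5 by 1.17 ± 0.14 and 1.07 ± 0.14 (adjusted p = 0.000431 and 0.00257, limma). The spliced transcripts of these hosts have TOP-like starts, as ribosomal protein messages do.

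Of 12 genes of the RNA polymerase I machinery, which transcribes ribosomal RNA, 4 rose and 1 fell against FC and 2 rose and 1 fell against BG in soleus. Taf1d rose in both (1.06 ± 0.21, adjusted p = 0.00175, and 0.69 ± 0.21, adjusted p = 0.0273, limma). Of 31 initiation factors 10 rose (32.3%) and 3 fell (9.68%) in BF against FC soleus, 3 rose (9.68%) and 2 fell (6.45%) in BF against BG, where both shares lay below those of all genes, and 1 rose and 8 fell (25.8%) in FC against BG. Eif2s2 rose against FC (0.75 ± 0.10, adjusted p = 9.57e-05) and against BG (0.45 ± 0.10, adjusted p = 0.0053, limma), and Eif4e rose against FC (0.77 ± 0.16, adjusted p = 0.0021) and fell in FC against BG by 0.77 (adjusted p = 0.00592). Eif3m rose against FC (0.71 ± 0.16, adjusted p = 0.0044, limma) and changed by -0.10 ± 0.16 against BG. Of 9 elongation factors 1 rose and 2 fell against FC, among them Eif5a (-0.45 ± 0.10, adjusted p = 0.00482, limma).

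Of 22 regulators of mTOR, S6 kinase and TOP messages, 6 rose (27.3%) and 4 fell (18.2%) against FC and 3 rose (13.6%) and 2 fell (9.09%) against BG in soleus, the shares against BG being near those of all genes, with medians of 0.02 and 0.01. Myc, a transcription factor that drives ribosome production, rose by 2.35 ± 0.35 against FC and 2.23 ± 0.35 against BG (adjusted p = 0.000178 and 0.000394, limma). Sesn1, an inhibitor of mTOR signalling, rose by 1.23 ± 0.14 and 1.08 ± 0.14 (adjusted p = 2.65e-05 and 0.000109), and Eif4ebp1, the repressor of cap-dependent initiation, by 1.13 ± 0.17 in both (adjusted p = 0.000257 and 0.000375, limma). Sesn1 and Eif4ebp1 rose in EDL as well. The 13 genes of the p53 and ribosomal stress list held 5 that rose and 1 that fell against FC, and 5 that rose and 2 that fell against BG. Among them Cdkn1a rose by 2.18 ± 0.34 against FC and 1.303 ± 0.34 against BG (adjusted p = 0.000262 and 0.0119, limma), and Plk2 by 1.44 ± 0.30 and 1.497 ± 0.30 (adjusted p = 0.00237 and 0.00241). Ribosomal proteins outside the naming rule numbered 4 (Fau, Rplp0, Rplp2 and Rpsa), of which Rpsa rose in BF against BG soleus (0.38 ± 0.12, adjusted p = 0.0267, limma).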

How the data were processed

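Total RNA of soleus and EDL was amplified and hybridised to Affymetrix mouse 3′ expression arrays by the authors, who imported the scans into Partek and summarised them by RMA. The deposited log2 values are therefore background-corrected, quantile-normalized across the arrays, log2-transformed and median-polished by the authors, and describe levels relative to the other transcripts of an array. Absolute amounts of RNA, scanner files and probe-level values were not used here.

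Of 22690 probe sets, 64 controls were left out and 22626 were tested. Probe sets were named from the GEO platform annotation: 20393 named 1 gene, and 20364 of these matched a current RefSeq gene record. Means of 6 groups of 3 arrays were fitted with limma 3.58.1 in R 4.3.3, with variances moderated by empirical Bayes (residual degrees of freedom, 12; prior, 5.1), and p-values were adjusted by Benjamini-Hochberg over all tested probe sets for each of 10 contrasts. A gene was called where its adjusted p was below 0.05, with no minimum change, because few abundant transcripts change 2-fold. Log2 fold changes are given with the moderated SE. With 3 arrays in a group, the number of arrays limits the precision. Promoters came from RefSeq on GRCm38.p6, and figures were drawn with matplotlib 3.10.9 in Python 3.11.15.

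Named were the paralogs of ribosomal proteins and their partners, members with roles outside the ribosome, the 5 called members with the highest and the 5 with the lowest log2 fold change of each contrast, and up to 3 called genes with the largest change of each related list. The members and lists were chosen with earlier results of these data known. The alternatives tried were other scaling, cyclic loess, array quality weights, a low signal filter, other probe set rules, a 2-fold threshold, ordinary one-way contrasts as in the study, a replicate block and leaving out each array. The other probe set rules and the 2-fold threshold were applied to the members as a set and not to the calls of single genes. Deviations from the group means of arrays with the same number correlated at -0.13 to 0.30 within a muscle and at -0.05 to 0.37 between the muscles of a condition. Between the muscles, 6 of 9 pairs with the same number were over 0.1, among them all 3 FC pairs (0.16 to 0.37). Of the pairs with different numbers, 1 of 18 was. The labels do not say whether arrays with the same number share a mouse. The fits were therefore made without pairs, and the fit with the number as a block was an alternative.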

Additional observations from a re-analysis of the deposited data

Results flagged for a closer look

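The BF minus BG change of Rpl12 differed between the muscles: it was larger in soleus than in EDL by 1.35 ± 0.27 (SE) on the log2 scale (limma interaction, adjusted p = 0.00947). In soleus all 3 BF arrays lay above all 3 BG arrays (1.29), and in EDL the groups overlapped (-0.06). Against FC, Rpl12 in BF EDL was higher by 0.38 ± 0.19, without overlap and not called (adjusted p = 0.33, limma). For BF against BG, the 2 bright shared probe sets of Rpl12 changed by 0.29 and 0.21 in soleus and by -0.004 and 0.11 in EDL, none called. The difference of 1.35 rests on a dim probe set, and was 1.08 without BF soleus replicate 2 (adjusted p = 0.00908, limma). Its adjusted p lay between 0.0006 and 0.0302 over the 18 alternatives. No other member passed this test. A larger change in soleus was seen for 28 of 46 members (60.9%) and for 55.4% of all genes.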

How the results depend on the processing

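None of the 38 member calls turned its direction in an alternative run for it. Of these 38, 12 held in every such alternative and 26 were lost in at least 1. Those that held were Rpl12 in 4 contrasts, and Rpl22l1, Rps18, Rps19, Rps3a1 and Rps27 in BF against FC soleus. The others were Rps27 against BG in soleus, and Rpl22l1 and Rps27l between the muscles of FC mice. The low signal filter removed the dim probe set of Rps27, so its calls were run in 11 alternatives. The bright shared probe set of Rps27 passed against neither control (0.18 against BG and 0.11 against FC). Cyclic loess normalization raised the soleus counts to 15 for BF against BG and 23 for BF against FC, lowered FC against BG to 1, gave 3 for the interaction and 1, a lower member, for BF against FC in EDL. It moved the member medians to 0.29 (BF against BG soleus), -0.026 (FC against BG soleus), 0.25 (interaction), 0.20 (soleus against EDL in BF), 0.020 (soleus against EDL in FC) and -0.055 (FC against BG EDL). Array quality weights gave 11 calls for FC against BG soleus, 6 for the interaction, 4 and 6 for soleus against EDL in BG and FC, and 2, both lower, for BF against FC in EDL, where the median was 0.030, and a median of -0.020 for BF against BG in EDL. Taking every probe set gave 0.032 for BF against FC in EDL, and a call by any probe set gave 5 for FC against BG soleus and 3 for the interaction. The 2-fold threshold left 1 member (BF against BG soleus), 2 (BF against FC soleus), 0 (FC against BG soleus), 0 and 0 (soleus against EDL in BF and BG) and 1 (in FC). Counting only the bright members, chosen after seeing the data, left 4 for BF against BG soleus, 1 for soleus against EDL in BF and 0 for the interaction. One-way contrasts gave 4 for BF against BG, 1 for FC against BG, 2 for the interaction and 3 each for soleus against EDL in BF and BG. Member medians changed sign for BF against BG in EDL (array weights), soleus against EDL in FC (cyclic loess) and in BG (both of these, and without BG EDL replicate 2), and FC against BG in EDL (median centring, every probe set, and without BG EDL replicate 3 or FC EDL replicate 2). The cause of these differences was not tested.

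With the replicate number as a replicate block, the counts were 4 for BF against BG soleus, 8 for BF against FC soleus, 1 for FC against BG soleus and 2 for the interaction, and it moved no other count by over 1.5 times. Across muscles of 1 condition, arrays with the same number correlated at -0.05 to 0.37 (median 0.14), over 0.1 in 6 of 9 pairs, against 1 of 18 pairs with different numbers (median -0.07). All 3 FC pairs were over 0.1, and with the block FC mice kept 3 calls between the muscles. Leaving out 1 array gave 3 to 7 calls for BF against BG soleus, 7 to 17 for BF against FC soleus, 0 to 3 for FC against BG soleus, 1 to 4 for the interaction, 1 to 7, 0 to 2 and 2 to 4 for soleus against EDL in BF, BG and FC, and 0 throughout for the EDL comparisons. The member medians then ran from 0.07 to 0.18 for BF against BG soleus, 0.23 to 0.31 for BF against FC soleus, -0.15 to -0.10 for FC against BG soleus, 0.04 to 0.14 for BF against BG EDL, 0.07 to 0.17 for BF against FC EDL and 0.0074 to 0.13 for the interaction. Signal over background limits the 12 dim members, and centring or loess moved the median of all genes by less than 0.1.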
